A study of Mus musculus with 2 samples.

Results

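The genes described here are the mouse ID proteins, Id1, Id2, Id3 and Id4, and the E proteins, Tcf3, Tcf4 and Tcf12, chosen by name. All 7 were found by Ensembl ID among the 55487 gene IDs of the deposited count table. RNA was sequenced from 2 cultures of C57BL/6 mouse bone marrow cells, 1 library each. One culture carried a pMYs-IG retroviral vector for EVI1+18, the aberrantly spliced form that the study is about, and the other carried the same vector for wild-type EVI1 (EVI1-WT), both with an HA tag and both overexpressed. EVI1 is a zinc finger transcription factor encoded by Mecom and linked to aggressive leukaemia. In both groups the starting cells were lineage-negative marrow from femora, tibiae and pelvis, sorted for GFP 3 days after infection, and 10000 sorted cells were grown in methylcellulose for about 3 weeks. RNA was therefore taken from whole pools of colonies, and the labels say nothing of the age, sex or number of the mice. Cells without an EVI1 vector were not analysed here, so both groups carry an EVI1 vector. Each form had 1 library, no test over replicates could be made, and the 95% intervals describe counting error alone.

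E proteins are basic helix-loop-helix (bHLH) transcription factors that pair with each other or with tissue-restricted bHLH factors and bind the E-box, a short DNA motif. ID proteins have the helix-loop-helix but lack the basic region that touches DNA, so an E protein held by an ID protein cannot bind. In blood, E proteins are required for B and T lymphocytes, and their pairs with TAL1 and LYL1 work in stem cells and in red-cell and platelet precursors. ID2 is needed for natural killer cells, innate lymphoid cells and some dendritic cells, and is also made in myeloid cells, whereas ID1 and ID3 are classical targets of bone morphogenetic protein (BMP) signalling.

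The families differ in gene architecture (GENCODE release M21, GRCm38). The ID genes are compact. Id1 lies on chromosome 2 (152736251 to 152737410, plus strand) and Id2 on chromosome 12 (25093799 to 25097140, minus strand). Id3 lies on chromosome 4 (136143497 to 136145755, plus strand) and Id4 on chromosome 13 (48261228 to 48266026, plus strand). They span 1160, 3342, 2259 and 4799 bases. The E protein genes are long, at 24134 bases for Tcf3 on chromosome 10 (80409514 to 80433647, minus strand) and 269184 bases for Tcf12 on chromosome 9 (71842688 to 72111871, minus strand). Tcf4 spans 345724 bases. No exon of an E protein gene or of Id1, Id2 or Id3 overlaps an exon of another annotated gene, and at most 0.329% of the 50-base words in the transcripts of those 6 genes occur in another gene. The counts are per gene and do not separate the splice forms of the E proteins.

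RefSeq promoter sequence (GRCm38.p6) was at hand for 5 of the 7 genes, Id2, Id3, Id4, Tcf3 and Tcf12. The 250 bases before each annotated start were searched on both strands. The RefSeq starts of Id2, at 25096092, and Id3, at 136143822, lie inside the GENCODE spans given above, and so do the 250 bases before them. The E-box, CANNTG, is shown because it is the motif that E proteins bind and ID proteins keep free. It occurred once before the start of Id2, once before that of Tcf3 and once before the first start of Tcf12, at 72111819, and not before those of Id3 and Id4. Of the several starts of Tcf12, the E-box is given for that one alone. Of all 32851 promoters in the table, 66.2% hold an E-box. The GC-core form CAGCTG, which is one of the forms counted under CANNTG, is held by 13.0% of promoters and was found at Id2 and at the start of Tcf12 at 72111819. The windows, each on its gene's strand and with the E-box in capitals, are the following.
Id2, chr12:25096271-25096300: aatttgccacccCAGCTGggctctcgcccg
Tcf3, chr10:80433672-80433701: agtgggcgtggtCACTTGggggcgtggctt
Tcf12, chr9:72112042-72112069: agatgctgccCAGCTGcgtccccgtcgc
The Id2 site begins 196 bases before the start and the Tcf3 site 54 bases before it. A GGCGCC box, a form bound by SMADs of the BMP pathway, occurred in the 250 bases before the starts of Id2 and Id4, and in 9.59% of all promoters. The box was absent before the starts of Id3 and Tcf3 and before that of Tcf12 at 72111819. It is shown because BMP receptors are described below, with the box in capitals.
Id2, chr12:25096306-25096335: tcaggccccctgGGCGCCcagcgcacactg
Id4, chr13:48260956-48260985: ctcgggttgcccGGCGCCccgccctcgcca
GATAA is found in 22.6% of all promoters, and GACAAGATA, a core that the first EVI1 zinc fingers bind, in 0.107%. Neither occurred in the 250 bases before the starts of Id2, Id3, Id4 and Tcf3, or before that of Tcf12 at 72111819. CCAAT occurred 3 times before the start of Id2, 2 times before that of Id4 and 2 times before the start of Tcf12 at 71896096, and was found in 33.8% of all promoters.

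Id2 was the tested member that differed most between the libraries. It had 869 counts in EVI1+18 and 3610 counts in EVI1-WT, or 40.5 and 180 scaled CPM (CPM, read counts scaled to a common library size by the TMM method). The level in EVI1+18 was 4.45-fold lower, with a counting interval of 4.13 to 4.80. Only 2.34% of the 13183 genes tested, which reached 1 scaled CPM in either library, had a smaller log2 ratio. Id2 was the only member whose whole interval lay past 2-fold, which makes 1 of the 5 members tested, against 10.1% of all tested genes in either direction and 5.1% in the lower direction.

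Id1 was at the same level in both libraries within counting error. It had 1492 counts in EVI1+18 and 1394 in EVI1-WT, or 69.5 and 69.6 scaled CPM. The ratio was 0.999, with an interval of 0.928 to 1.08. Id1 encodes the ID protein best known as an immediate BMP target.

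Id3 and Id4 did not reach the expression filter in either library. Id3 had 13 counts in EVI1+18 and 3 in EVI1-WT, at 0.606 and 0.150 scaled CPM, a ratio of 4.04 with an interval of 1.11 to 22.1. Id4, best known from the nervous system and the germ line, had 0 counts in both libraries. The floor used for a count of 0, at 3 counts, would be 0.140 scaled CPM in EVI1+18 and 0.150 in EVI1-WT. The exact 95% upper limits for Id4 were slightly higher, at 0.172 and 0.184. Id2 supplied 36.6% of the ID counts in EVI1+18 (exact interval 34.7 to 38.6) and 72.1% in EVI1-WT (70.8 to 73.3). The plot of member levels shows the 4 ID genes beside the E proteins.

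**Figure D1:**
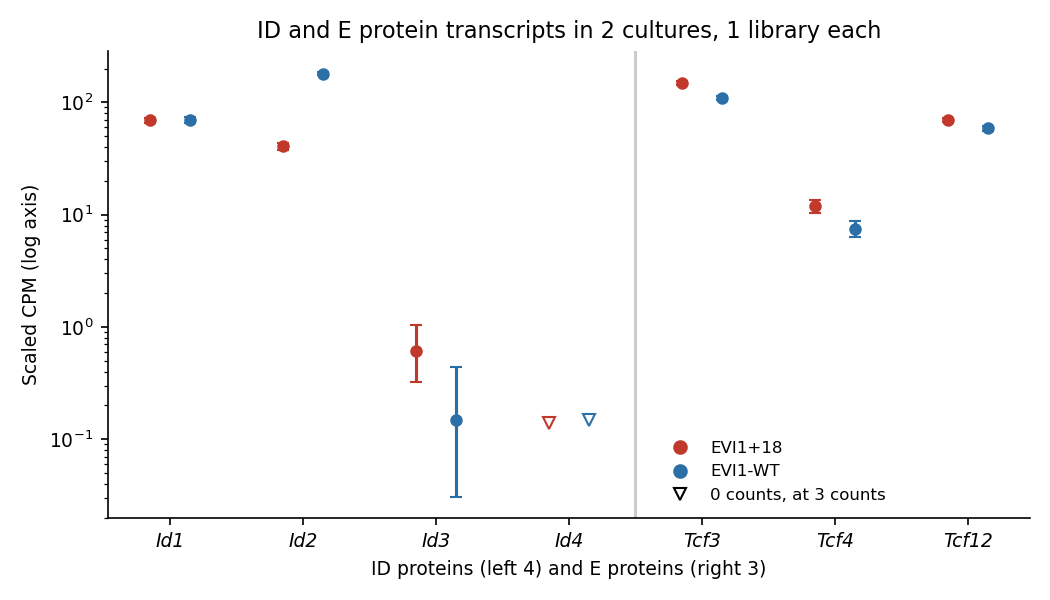
Scaled CPM of the 7 genes (log axis) in EVI1+18 (red, left of each pair) and EVI1-WT (blue), 1 library each, with exact 95% Poisson bars. Id2 stands at 40.5 in EVI1+18 and 180 in EVI1-WT, Id1 at 69.5 and 69.6, and each E protein is higher in EVI1+18; open triangles mark 0 counts, drawn at the level of 3 counts.

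Markers of several blood lineages moved in the same libraries. All 8 mast cell and basophil markers were lower in EVI1+18, with summed levels of 445 scaled CPM in EVI1+18 and 4843 in EVI1-WT, and all 8 neutrophil markers were lower, at 967 and 2893. All 4 tested eosinophil markers were lower, with sums of 148 and 849 over the 6 listed. All 10 erythroid markers were higher, at 7734 and 1229, as were all 6 tested platelet markers, with sums of 1216 and 554 over the 7 listed. The 6 tested monocyte and macrophage markers split, with 3 higher and 3 lower, and sums of 454 and 977 over the 8 listed. The 8 markers of T, natural killer and innate lymphoid cells summed to only 0.699 scaled CPM in EVI1+18 and 2.50 in EVI1-WT, with Ncr1 at 0 counts in both libraries. Of these cells, ID2 is needed for the natural killer and innate lymphoid cells. The 6 B cell markers summed to 2.24 and 3.40, with Ebf1, Pax5 and Ms4a1 at 0 in both. All 6 pan-haematopoietic markers were present in both libraries, each lower in EVI1+18, with sums of 2857 and 3950, and Cd53 lay past 2-fold lower at 2.23-fold (2.18 to 2.29). The part of these lineage differences in the Id2 ratio was not tested, and in bulk RNA fewer cells of a type and less RNA per cell cannot be told apart.

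All 3 E protein genes were higher in EVI1+18, by less than 2-fold. Tcf3 had 3190 counts in EVI1+18 and 2204 in EVI1-WT, at 149 and 110 scaled CPM, a ratio of 1.35 (1.28 to 1.43). Tcf12, which encodes HEB, had 1494 and 1175 counts, at 69.6 and 58.7 scaled CPM, a ratio of 1.19 (1.10 to 1.28). Tcf4 encodes the E protein that specifies plasmacytoid dendritic cells and is distinct from the Wnt factor of the same nickname. It had 254 counts in EVI1+18 and 150 in EVI1-WT, at 11.8 and 7.49 scaled CPM, a ratio of 1.58 (1.29 to 1.95). Each interval lay above 1, which was also so for 33.4% of all tested genes, while 32.8% had an interval below 1. None of the 3 E proteins lay past 2-fold, which 5.05% of tested genes did in the higher direction. The median log2 ratio of all tested genes was 0.01, and Tcf12, Tcf3 and Tcf4 stood at 0.25, 0.43 and 0.65.

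**Figure D2:**
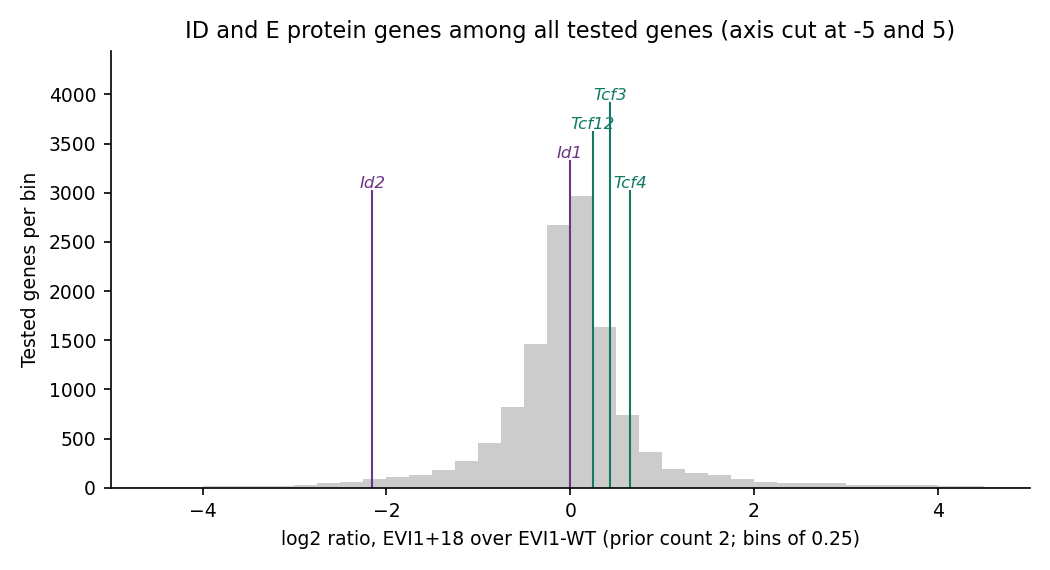
Numbers of tested genes (vertical axis) in bins of log2 ratio, EVI1+18 over EVI1-WT, with a prior count of 2 (horizontal axis); purple lines mark the 2 tested ID genes and green lines the 3 E proteins. Id2 lies in the left tail at -2.15, Id1 at 0.00, and Tcf12, Tcf3 and Tcf4 lie right of the centre at 0.25, 0.43 and 0.65.

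The mix of E proteins was close in the 2 libraries. Tcf3 made up 64.6% of E protein counts in EVI1+18 (63.2 to 65.9) and 62.5% in EVI1-WT (60.8 to 64.1). Tcf12 made up 30.3% in EVI1+18 (29.0 to 31.6) and 33.3% in EVI1-WT (31.7 to 34.9), and Tcf4 5.14% and 4.25%. Relative to Tcf3, Tcf12 was 1.14-fold lower in EVI1+18 (1.04 to 1.25), while the Tcf4 to Tcf3 ratio was 1.17 times that in EVI1-WT with an interval that held 1 (0.945 to 1.45). These are shares of reads, not of molecules.

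The balance of the families differed more than either family alone. ID genes took 2374 counts in EVI1+18 and 5007 in EVI1-WT, and E protein genes took 4938 and 3529. The ID share of all reads of the 7 genes was 32.5% in EVI1+18 (exact interval 31.4 to 33.6) and 58.7% in EVI1-WT (57.6 to 59.7). Library scaling cancels in such a share. Most of the difference rested on 1 gene, since without Id2 the ID share was 23.4% in EVI1+18 (22.3 to 24.4) and 28.4% in EVI1-WT (27.1 to 29.6). Reads also favour long transcripts, and per kilobase of merged exon sequence the ID share was 64.8% and 81.1%, again lower in EVI1+18.

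**Figure D3:**
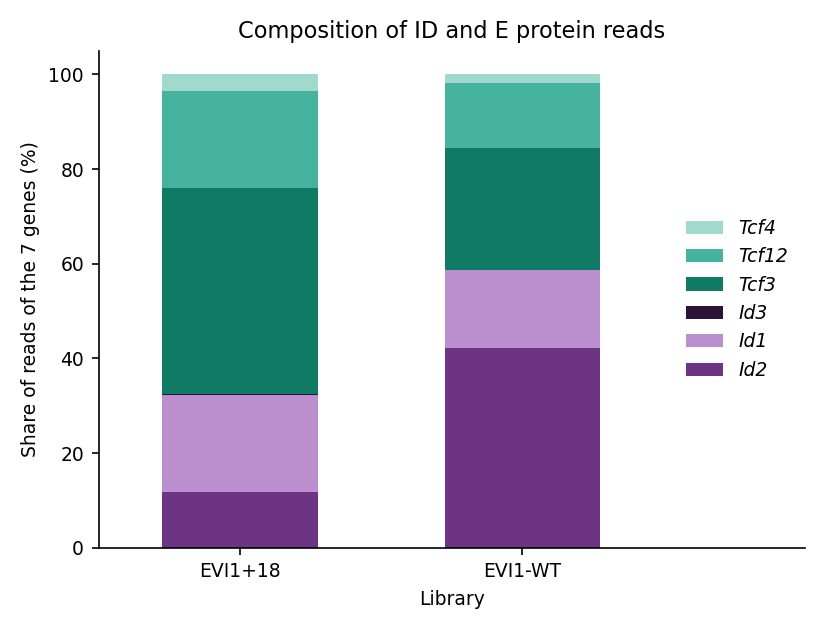
Share of the reads of the 7 genes (percent, vertical axis) held by each gene in the EVI1+18 library (left bar) and the EVI1-WT library (right bar). Id2 (dark purple) fills 11.9% of the bar in EVI1+18 and 42.3% in EVI1-WT, and Tcf3 (dark green) fills 43.6% and 25.8%; Id4 had no reads.

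Set against single partners, Id2 was lower in EVI1+18 by 5.28-fold to 7.03-fold. There were 0.272 Id2 reads for each Tcf3 read in EVI1+18 and 1.64 in EVI1-WT, which is 6.01-fold lower in EVI1+18 (5.48 to 6.60). Against Tcf12 the Id2 ratio was 0.582 in EVI1+18 and 3.07 in EVI1-WT, 5.28-fold lower (4.74 to 5.88), and against Tcf4 it was 3.42 and 24.1, 7.03-fold lower (5.64 to 8.78). Id1 was lower relative to Tcf3 by 1.35-fold (1.23 to 1.48), at 0.468 Id1 reads per Tcf3 read in EVI1+18 and 0.632 in EVI1-WT. These reads-per-read values compare genes of different length, and the length cancels only in the fold between libraries.

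The order of the members by level per kilobase of merged exon sequence changed at the top. In EVI1+18 it ran Id1 (59.9 scaled CPM per kilobase), Tcf3 (36.8), Id2 (16.6), Tcf12 (4.48), Tcf4 (0.432), Id3 (0.338) and Id4 (0). In EVI1-WT it ran Id2 (73.9), Id1 (60.0), Tcf3 (27.2), Tcf12 (3.78), Tcf4 (0.274), Id3 (0.0836) and Id4 (0). By merged exons, the neighbours that did not differ beyond counting error were Tcf4 and Id3 in EVI1+18, and Id3 and Id4 in EVI1-WT. The merged exons of Tcf4 and Tcf12, at 27382 and 15529 bases, are far longer than their median coding transcripts of 1842 and 2257 bases. Per kilobase of median coding transcript Tcf12 reached 30.9 in EVI1+18 and 26.0 in EVI1-WT, and Id2 and Tcf12 in EVI1+18 could then not be told apart (31.9 and 30.9). With that length Tcf4 lay above Id3 in EVI1+18, at 6.43 and 0.474 (interval of the ratio 7.79 to 25.8). Id3 then also lay above Id4 in EVI1-WT, with a lower bound of 1.24. The first places, Id1 in EVI1+18 and Id2 in EVI1-WT, were held with either length.

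The E protein partners of blood stem cells and red-cell precursors were higher in EVI1+18. Tal1, whose product binds DNA only as a pair with an E protein, had 5354 counts in EVI1+18 and 2183 in EVI1-WT, at 250 and 109 scaled CPM, a ratio of 2.29 (2.18 to 2.41). Its relative Lyl1 had 4200 and 2313 counts, a ratio of 1.69 (1.61 to 1.78). For each Tcf3 read there were 1.68 Tal1 reads in EVI1+18 and 0.990 in EVI1-WT, a ratio of 1.69 (1.57 to 1.83), and the Id2 to Tal1 ratio was 10.2-fold lower in EVI1+18 (9.31 to 11.2). Of 14 tissue-restricted bHLH partners listed, 4 were tested and 9 had 0 counts in both libraries. Past 2-fold, 2 were higher and 1 was lower, against 5.05% and 5.1% of all tested genes. These background shares apply to each list below. The second higher gene was Atoh8, with 44 counts in EVI1+18 and 2 in EVI1-WT, a ratio of 20.5 (5.36 to 175), and the lower gene was Bhlha15, a factor of secretory cells, with 20 and 64 counts, 3.43-fold lower (2.05 to 5.98). All 10 erythroid markers were higher in the same library, as were all 5 tested stem and early progenitor markers, with sums of 53.7 scaled CPM in EVI1+18 and 11.1 in EVI1-WT over the 7 listed and 0 counts for Hlf in both. The part of either set in the Tal1 and Lyl1 ratios was not tested.

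Proteins that bind TAL1 with E proteins, and corepressors of E proteins, split by gene. With the whole interval past 2-fold, 2 of the 9 tested were higher and 0 lower, against 5.05% and 5.1% of all tested genes. The median log2 ratio of the list was 0.13. Lmo2, the LIM bridge between TAL1 and GATA factors, had 3415 counts in EVI1+18 and 944 in EVI1-WT, and Gata1 had 3364 and 1236. Ldb1, the adaptor that joins LMO2 complexes across DNA, was at 130 scaled CPM in EVI1+18 and 143 in EVI1-WT, a ratio of 0.910 (0.864 to 0.959). Gata2, the most abundant gene of the list and a regulator of stem cells and mast cells, had 8078 counts in EVI1+18 and 15407 in EVI1-WT, 2.04-fold lower with an interval that held 2-fold (1.99 to 2.10). The summed level of the list was 1341 scaled CPM in EVI1+18 and 1463 in EVI1-WT, of which Gata2 alone held 376 and 769. Cbfa2t3, a corepressor of the ETO family that binds E proteins, stood at 241 and 156 scaled CPM, a ratio of 1.54 (1.48 to 1.61).

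**Figure D4:**
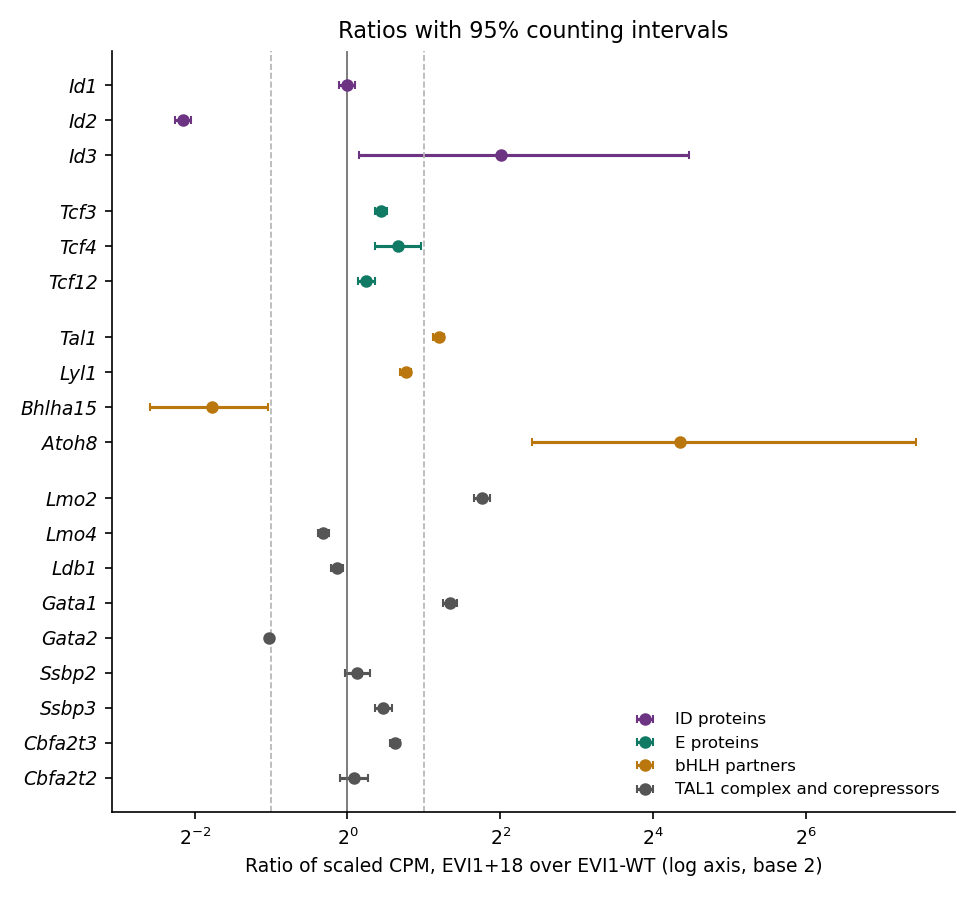
Ratio of scaled CPM, EVI1+18 over EVI1-WT, on a log axis for each detected ID and E protein gene and each tested partner gene; bars are 95% counting intervals, the solid line marks 1 and the dashed lines 2-fold. Id2 (0.225) and Bhlha15 (0.292) lie left of the lower dashed line and Gata2 (0.489) on it, and the 3 E proteins lie between 1 and 2. Tal1 (2.29), Lmo2 (3.38), Gata1 (2.54) and Atoh8 (20.5) lie right of 2. Id3, below the expression filter, is drawn at 4.04 with a wide interval (1.11 to 22.1).

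Among genes of BMP signalling, which induces Id1 and Id3, some receptor genes were lower in EVI1+18 and the co-receptor gene was higher. Of 13 ligand and receptor genes 7 were tested, and their median log2 ratio was -0.50. Past 2-fold 1 was higher and 2 were lower, against 5.05% and 5.1% of all tested genes. The type I receptor Acvrl1 had 28 counts in EVI1+18 and 150 in EVI1-WT, 5.74-fold lower (3.81 to 8.93), and 2.98% of its exon bases overlap Gm16031, which had 0 counts in both libraries. Acvr1 had 131 and 370 counts, 3.03-fold lower (2.47 to 3.72), whereas Bmpr1a was at 26.1 and 27.1 scaled CPM, a ratio of 0.963 (0.854 to 1.09). The co-receptor endoglin, Eng, had 103 and 9 counts, a ratio of 10.7 (5.41 to 24.0); 1.51% of its exon bases overlap Fpgs on the opposite strand. The ligands Bmp2 and Gdf2 had 0 counts in both libraries, and the other ligands had at most 4. Of 8 tested SMAD and inhibitor genes, whose median log2 ratio was -0.27, Bambi lay past 2-fold higher and 0 lay past 2-fold lower. The BMP SMAD gene Smad1 was at 6.62 scaled CPM in EVI1+18 and 14.9 in EVI1-WT, 2.26-fold lower (1.84 to 2.77), and its partner Smad5 at 27.2 and 27.3.

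EGR factors induce Id3 in developing T cells, and here only Egr3 of the 5 tested EGR and NAB genes lay past 2-fold. Egr3 had 169 counts in EVI1+18 and 795 in EVI1-WT, 5.04-fold lower (4.26 to 5.99), while Egr1 was at 182 and 175 scaled CPM, a ratio of 1.04 (0.994 to 1.09). None of the 5 genes of ID protein turnover lay past 2-fold, and their median log2 ratio was 0.02. Usp1, the deubiquitinase that stabilises ID proteins, was at 156 scaled CPM in EVI1+18 and 132 in EVI1-WT, a ratio of 1.19 (1.13 to 1.25), and the ubiquitin ligase gene Huwe1 at 297 and 350.

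Genes on which E proteins are known to act did not move in 1 direction. Of 5 cyclin-dependent kinase (CDK) inhibitor genes, 1 lay past 2-fold higher and 1 past 2-fold lower, against 5.05% and 5.1% of all tested genes. The median log2 ratio of the 5 was -0.07. Cdkn2a, a locus that ID1 restrains in fibroblasts, had 600 counts in EVI1+18 and 4046 in EVI1-WT, 7.22-fold lower (6.63 to 7.88). Its neighbour Cdkn2b was 2.14-fold lower (1.85 to 2.47), at 289 and 576 counts. Cdkn1c went the other way, with 234 and 17 counts, a ratio of 12.8 (7.85 to 22.4). Of its exon bases 30.7% overlap Gm44732 on the opposite strand, which had 0 counts in both libraries. Cdkn1a, the classical E protein target, was at 261 and 275 scaled CPM, a ratio of 0.951 (0.916 to 0.987).

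Of 15 lymphoid targets of E proteins 4 were tested, and their median log2 ratio was 0.44. Rag1, Rag2, Ebf1, Pax5, Dntt and Vpreb2 had 0 counts in EVI1+18 and in EVI1-WT. Of the tested genes only Blnk, an adaptor also found in myeloid cells, had its whole interval past 2-fold, with 23 counts in EVI1+18 and 1 in EVI1-WT, a ratio of 21.5 (3.49 to 884). The interleukin 7 receptor gene Il7r was at 29.8 and 30.4 scaled CPM, a ratio of 0.983 (0.878 to 1.10). Foxo1, which works with E proteins in early B cells, had 194 counts in EVI1+18 and 96 in EVI1-WT, a ratio of 1.89 (1.47 to 2.43), and Cd79b had 45 and 65, a ratio of 0.646 (0.432 to 0.960).

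**Figure D5:**
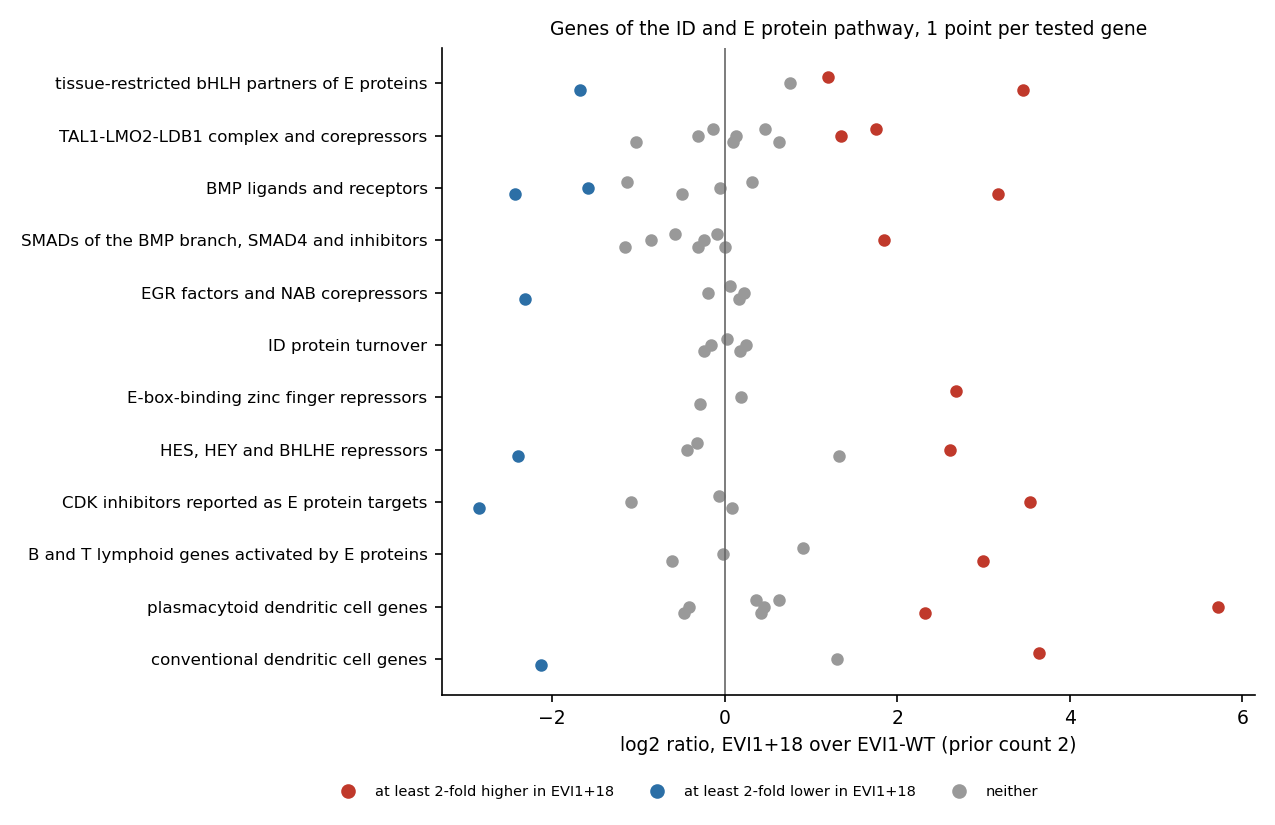
The log2 ratio, EVI1+18 over EVI1-WT, with a prior count of 2 (horizontal axis) of each tested gene of 12 lists around the ID and E proteins (rows); red points lie past 2-fold higher in EVI1+18, blue points past 2-fold lower, grey points neither. Most lists hold points on both sides of 0, with Bcl11a farthest right and Cdkn2a farthest left.

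By distance on the log2 scale over both levels, 2 of 11165 protein-coding genes lay within 0.25 of Id2. The nearest 3 were Ckap4, at 43.3 scaled CPM in EVI1+18 and 169 in EVI1-WT, B4galt5, at 46.6 and 164, and Slco4a1, at 45.6 and 157. They were 3.90-fold, 3.52-fold and 3.44-fold lower in EVI1+18. With 2 libraries this likeness is one of level and ratio alone.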

How the data were processed

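The authors deposited whole-number read counts per Ensembl gene, without normalization, in 1 column per culture. The build was GRCm38, and the tools named were featureCounts from Subread, edgeR, SAMtools and HISAT2 2.2.1, per the submitters' processing notes. Their settings, the annotation release and the strand mode were not given in the sources used here. Libraries were grouped by the vector in their labels and columns matched by name, with 0 columns left over. Totals were 20981903 counts for EVI1+18 and 20480447 for EVI1-WT. For a count of 0, a floor of 3 counts was used.

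Symbols, coordinates and exon lengths came from GENCODE M21. Libraries were scaled with edgeR 4.0.16 (TMM, R 4.3.3). With 1 library per group no residual degrees of freedom remain, so edgeR's quasi-likelihood test was not run. Each ratio has an exact (Clopper-Pearson) 95% interval, as have shares, and ratios of ratios have a conditional exact interval (scipy 1.17.1). PCR reads carrying no molecular identifier are not independent molecules, so every interval and floor covers counting error alone and compares 2 libraries, not vectors. Genes reaching 1 scaled CPM in either library counted as tested, and were called past 2-fold when the whole interval lay beyond 2 or 1/2. List medians use log2 ratios with a prior count of 2. The calling rule was tested on simulated Poisson counts. These hold no spread between cultures, so that test covers counting error alone.

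The members and the lists were chosen with earlier results of these data known. Named were all members, up to 4 called genes per list (or the most abundant where none was called), and the 3 genes nearest to Id2. Lyl1, Ldb1, Gata2, Foxo1, Cd79b, Cd53, Cbfa2t3, Bmpr1a, Smad1, Smad5, Egr1, Usp1, Cdkn1a, Cdkn2b, Il7r, Zeb1, Zeb2, Hes1, Batf3, Ptprs, Runx2 and genes listed at 0 were named after their values were seen. So were Irf7, Tlr9, Cd74, Siglech and Spib. Some items are not reported here.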

Additional observations from a re-analysis of the deposited data

How the results depend on the processing

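The ratios of Id1, Id2, Id3, Tcf3, Tcf4 and Tcf12 stayed inside their own counting intervals under all 5 alternatives run for each, which were DESeq2 size factors (DESeq2 1.42.0), total counts, upper-quartile scaling, TMM without globin and mitochondrial genes, and a prior count of 2. Id2 ranged from 4.26-fold to 4.45-fold lower, Tcf3 from 1.35 to 1.41, Tcf4 from 1.57 to 1.65 and Tcf12 from 1.19 to 1.24, and Id3 from 2.85 to 4.23. The counts of genes past 2-fold, 666 higher and 672 lower, moved with the rule. At least 5 scaled CPM left 431 higher and 468 lower. A ratio past 2-fold whatever its interval gave 1037 higher and 1105 lower, and an interval past 1.5-fold 1093 and 1290. An interval that excluded 1, chosen after seeing the data, gave 4407 and 4322, and then 3 members, the E proteins, counted as higher where 0 had. Id2 was the 1 lower member under each of these call rules and filters, without a filter, and with DESeq2, total-count or upper-quartile scaling; the TMM without globin and mitochondrial genes was run for the ratios alone. The ID share, 32.5% in EVI1+18 and 58.7% in EVI1-WT by reads, was 64.8% and 81.1% per kilobase of merged exons, 52.4% and 75.2% per kilobase of median coding transcript (chosen after seeing the data), and 23.4% and 28.4% without Id2. No paired analysis was possible because each group has 1 library, and no replicate could be left out. Depth limits Id3 and Id4, and leaves ratios with 1 to 3 counts in a library with wide intervals.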

Other observations

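Dendritic cell genes, in which ID2 and TCF4 are known to act in opposite branches, were mostly at low levels. Of 8 tested plasmacytoid genes, 2 lay past 2-fold higher in EVI1+18 and 0 past 2-fold lower, against 5.05% and 5.1% of all tested genes. The median log2 ratio of the 8 was 0.44. Bcl11a, a transcription factor also used by B cell and stem cell precursors, had 219 counts in EVI1+18 and 2 in EVI1-WT, a ratio of 102 (28.0 to 849), and 2.40% of its exon bases overlap 4930538E20Rik on the opposite strand. Irf8, a factor of monocytes and dendritic cells, had 223 and 40 counts, a ratio of 5.20 (3.70 to 7.48). All 5 tested dendritic cell markers were higher in the same library, and their part in these ratios was not tested. Sums over the 6 listed markers were 208 scaled CPM in EVI1+18 and 108 in EVI1-WT, of which Cd74 held 168 and 95.3. Clec9a is both one of these markers and a gene of the conventional branch below. Ptprs was at 123 and 89.5 scaled CPM, a ratio of 1.38 (1.30 to 1.46), and Runx2 at 10.9 and 8.14. Irf7 went the other way, at 19.7 and 27.5 scaled CPM, a ratio of 0.718 (0.631 to 0.816). Tlr9 had 18 and 23 counts, a ratio of 0.730 whose interval held 1 (0.371 to 1.41). Of the 8 tested plasmacytoid genes, 5 had an interval above 1, 1 an interval below 1, and 2 an interval that held 1. Cbfa2t3, described above, is also on this list. The defining markers Siglech (2 and 0 counts) and Spib (0 and 1) were near 0. Of 3 tested genes of the conventional branch, Itgae, the integrin chain also found on mast cells, had 143 counts in EVI1+18 and 593 in EVI1-WT, 4.44-fold lower (3.70 to 5.37), and the conventional dendritic cell factor Batf3 had 56 and 20 counts, a ratio of 2.61 (1.54 to 4.60). Clec9a lay past 2-fold higher, with 37 counts in EVI1+18 and 1 in EVI1-WT, a ratio of 34.5 (5.83 to 1400). Of its exon bases 5.59% overlap Clec1b on the same strand, which had 161 counts in EVI1+18 and 14 in EVI1-WT. The median log2 ratio of the 3 tested conventional genes was 1.31.

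Other repressors that bind E-boxes or related sites differed gene by gene. Among zinc finger repressors, Snai3 had 128 counts in EVI1+18 and 17 in EVI1-WT, a ratio of 7.03 (4.22 to 12.4), while Zeb2 was at 69.5 and 60.8 scaled CPM and Zeb1 at 23.7 and 28.9. Of 5 tested HES, HEY and BHLHE genes, 1 had its whole interval past 2-fold higher and 1 past 2-fold lower. Among all tested genes the shares were 5.05% higher and 5.1% lower. Bhlhe41, a repressor of the circadian clock, had 279 counts in EVI1+18 and 41 in EVI1-WT, a ratio of 6.35 (4.56 to 9.05), with 19.0% of its exon bases shared with Gm43909 on the opposite strand, which had 2 counts in EVI1+18 and 0 in EVI1-WT. Hey2 had 3 and 23 counts, 8.21-fold lower (2.48 to 42.7), and the Notch target Hes1 had 118 and 43 counts, a ratio of 2.56 whose interval held 2-fold (1.79 to 3.72).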
